A study of Mus musculus with 18 samples.

Results

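Detoxification enzymes were examined in whole mouse ovaries by their probe sets on 2 oligonucleotide chip types, A and B. Members were the probe sets with 1 gene symbol that starts with Cyp1, Cyp2, Cyp3 or Cyp4 and a letter, or with Gst, Gpx, Aldh, Ephx, Sult, Ugt or Akr1. This gave 77 probe sets of 64 genes among 13179 probe sets, 55 of them from chip A and 22 from chip B. These ovaries came from LHCTP transgenic mice, which hypersecrete luteinizing hormone (LH), and from wild-type mice, either of the CF-1 stock or CF-1xC57BL/6 F1 hybrids. At 2 months the labels call the transgenic ovaries of either strain cystic. At 5 months that of CF-1 is called a granulosa cell tumour, and that of the hybrid a luteoma, a mass of luteal cells. One further CF-1 transgenic ovary of 5 months had also received human chorionic gonadotropin (hCG), which acts on the LH receptor, and is described as a luteoma too. The references were untreated wild-type ovaries of both strains at 2 and 5 months, so the hCG-treated ovary differed from its wild type in transgene and treatment at once.

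Each of the 9 conditions had 1 array per chip type, 18 arrays in all, with no repeat of any condition. The labels give neither the promoter of the transgene, nor a dose of hCG, nor whether animals were pooled. In the published mouse line of this name, a pituitary gonadotrope promoter drives the LH transgene. The tissue label fits the markers measured. Of 13 ovary genes looked for, 9 have a probe set named here, among them Zp3, Inha and Star. All 9 met the detection rule given below, which needs at least 2 of the 9 arrays. In the CF-1 tumour Zp1, Zp2, Zp3, Amh and Star were under the detection limit, Zp3 at 146 and Star at 188 units. Levels below are scaled intensities in units, and log2 differences were taken after raising values to a floor of 183.8 units (chip A) or 290.7 units (chip B). A probe set was tested when it reached a detection limit of 2 floors on at least 2 of the 9 arrays. Before scaling, trimmed mean intensities lay between 907 and 1756 units for chip A arrays and between 542 and 921 for chip B arrays. After it, 54.3% to 57.7% of chip A probe sets and 28.0% to 29.5% of those of chip B reached the limit.

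Detoxification runs in steps that these families share out. Cytochrome P450 enzymes (Cyp) add oxygen to steroids, fatty acids and foreign compounds, and epoxide hydrolases (Ephx) open the epoxides that result. Aldehyde dehydrogenases (Aldh) and aldo-keto reductases (Akr1) clear aldehydes by oxidation and by reduction. Glutathione S-transferases (Gst), sulfotransferases (Sult) and glucuronosyltransferases (Ugt) couple products to glutathione, sulfate or glucuronic acid, and glutathione peroxidases (Gpx) remove peroxides. In steroid-making tissue such as the ovary, the same enzymes also act on estrogens, on cholesterol and on the lipid peroxides that arise beside steroid synthesis.

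Of the 77 probe sets, 39 were tested, covering 36 genes, among 6408 tested probe sets of all genes. The tested ones were 11 of 31 Cyp, 8 of 11 Aldh, 2 of 5 Akr1, 10 of 12 Gst, 4 of 5 Gpx, 3 of 9 Sult, 1 of 1 Ephx and 0 of 3 Ugt probe sets. All 38 untested probe sets stayed under the detection limit on all 9 arrays, and 27 of them under the floor on all 9. They held several P450 genes known from liver, such as Cyp3a11, whose probe sets read at most 24 units, and Cyp4a10, at most 153 units. The highest level of the Ugt family was 54 units, for Ugt2b34. A pair of retinoic acid synthesising enzymes, Aldh1a2 and Aldh1a3, read at most 528 and 39 units and were not detected. Most tested probe sets carry an Affymetrix suffix for probes that may match several related transcripts, so signal of near-identical paralogs, above all within the Gstm, Aldh and Gpx families, may be shared.

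**Figure D1:**
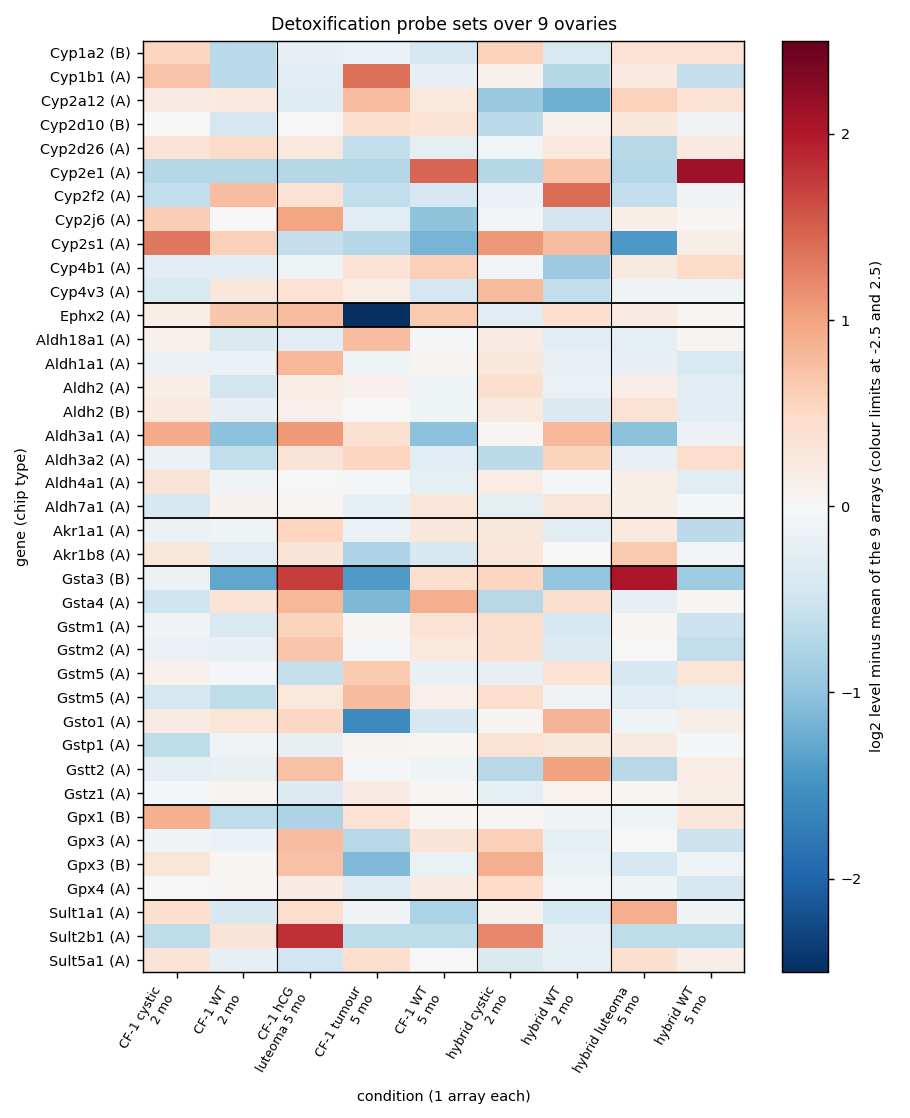
Log2 level of the 39 tested probe sets (rows, by family, chip type in brackets) in the 9 conditions (columns, 1 array each), as the difference from the mean of the 9 arrays. Red is above and blue below that mean; Ephx2 was lowest in the CF-1 tumour at 1849 units, and Gsta3 highest in the hybrid luteoma at 6178 and the hCG-treated luteoma at 5043.

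Gsta3 and Ephx2 had been singled out in earlier readings of these data, so their patterns are given as descriptions with no test. Gsta3 encodes an alpha class glutathione S-transferase whose human counterpart also isomerises ketosteroid intermediates of progesterone and androgen synthesis. It read 6178 units in the hybrid luteoma and 5043 in the hCG-treated CF-1 luteoma. The other transgenic ovaries read 1377 (CF-1 cystic), 565 (CF-1 tumour) and 2200 units (hybrid cystic). In wild-type ovaries Gsta3 read 616 and 2052 units in CF-1 at 2 and 5 months, and 760 and 823 in the hybrid at 2 and 5 months. Both luteomas therefore stood at least 2.29-fold above each of the other 7 ovaries, while the tumour lay just under the detection limit of 581.4 units. The lower of the luteomas and the highest of the rest, the hybrid cystic ovary, were separated by that factor. The hybrid luteoma exceeded its own wild type 7.50-fold. The hCG-treated luteoma exceeded the CF-1 wild type of 5 months 2.46-fold, short of the 3-fold rule used for pairs below.

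By the rule that both luteomas be at least 2-fold beyond the other 7 arrays, Gsta3 was the 1 member of 39 on the high side, against 3 of all 6408 probe sets (0.0468%), and 0 members were on the low side, against 2 of all (0.0312%). Among the cell type lists, the single tested theca gene, Cyp17a1, was also highest in the luteomas, at 9578 units in the hybrid luteoma and 8023 in the hCG-treated one against at most 6784 elsewhere. The summed level of 4 luteal genes was 43262 units in the hybrid luteoma and 90636 in the hCG-treated one, against 14080 in the tumour and 32270 to 76457 in the other 6 ovaries. The hybrid luteoma thus lay within the range of those 6. Among the 4 genes, Hsd3b1 read 39329 units in the hCG-treated ovary but 1664 in the hybrid luteoma, under the 3612 of its wild type. Star, Ptgfr and Scarb1 read above that wild type in the hybrid luteoma. The part of these cell types in the Gsta3 levels was not tested. In whole tissue, more or fewer cells of a type and more or less RNA per cell cannot be told apart.

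The start region of Gsta3 is shown because this gene marked both luteomas. At the floor used, its levels spanned 10.9-fold over the 9 ovaries. RefSeq places the window from 250 bases before to 50 after its start at chr1:21240335-21240634 (GRCm38.p6, plus strand).
Gsta3: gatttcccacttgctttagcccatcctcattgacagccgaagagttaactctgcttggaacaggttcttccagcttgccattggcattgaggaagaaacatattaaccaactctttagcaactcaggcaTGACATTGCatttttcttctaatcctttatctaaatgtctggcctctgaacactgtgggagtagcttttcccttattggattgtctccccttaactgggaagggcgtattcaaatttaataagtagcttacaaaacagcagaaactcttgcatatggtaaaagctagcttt
Capitals mark a match to TGACNNNGC, the core letters of the antioxidant response element, through which Nfe2l2 acts on many detoxification genes, and it begins 121 bases before the start. Of the member genes, 53 have such a window, and 4 of them (7.55%) hold this core on either strand, namely Aldh1a2, Cyp2j6, Gsta3 and Gstm5, against 14% of all 27025 genes with a window. A match of letters is a description, and binding was not measured.

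Ephx2, the soluble epoxide hydrolase that turns fatty acid epoxides into diols, had the opposite kind of exception. It read 1849 units in the CF-1 tumour, against 12645, 9395, 13090 and 19415 in the CF-1 cystic, hybrid cystic, hybrid luteoma and hCG-treated ovaries. The wild-type ovaries read 18192 and 18014 units in CF-1 and 15265 and 11841 in the hybrid, at 2 and 5 months. The tumour thus stood 5.08-fold below the next lowest ovary, the hybrid cystic one, and 9.74-fold below its wild type, while the other 8 ovaries lay within 9395 to 19415 units. By the rule of 3-fold beyond every other array, Ephx2 was the 1 member below, against 39 of all probe sets (0.609%), and 0 members stood above, against 18 of all (0.281%).

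Luteal cell genes were also low in the tumour. Star, which carries cholesterol into mitochondria, read 188 units there against 11263 to 22157 elsewhere, and Ptgfr, the prostaglandin F receptor, 217 against 7675 to 15874. Hsd3b1 was also lowest in the tumour, at 1150 units, but was low in other ovaries too. It read 1664 in the hybrid luteoma, 3209 in the hybrid cystic ovary, 3612 in the hybrid wild type of 5 months and 16166 or more in the rest. Scarb1, the lipoprotein receptor, was an exception among the 4 luteal genes, at 12525 units in the tumour against 9442 in the hybrid wild type of 5 months. Most epithelial and oviduct genes were low in the same array. The summed level over all 8 was 1847 units in the tumour, against 10496 to 29522 elsewhere. Its largest term outside the tumour was Ovgp1, the oviduct glycoprotein, at 109 units in the tumour against 5823 to 19169. Pax8, Epcam and Muc1 were not lowest there. Pax8 read 318 units in the tumour against 231 in the hybrid cystic ovary, and Epcam 228 against 134 in the CF-1 cystic one. Muc1, which was not tested, read 173 units against -18 in the hybrid cystic ovary. The summed level of 6 granulosa genes was highest in the tumour, at 56351 units against 18918 to 38243 elsewhere. Inhba, Inhbb, Fst and Hsd17b1 were highest there, Amh was lowest, at 415 units, and Inha lay within the range of the rest. The theca gene Cyp17a1 was lowest in the tumour, at 1727 units against 3968 to 9578. What luteal, granulosa, theca, epithelial and oviduct cells contributed to the Ephx2 difference was not tested.

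**Figure D2:**
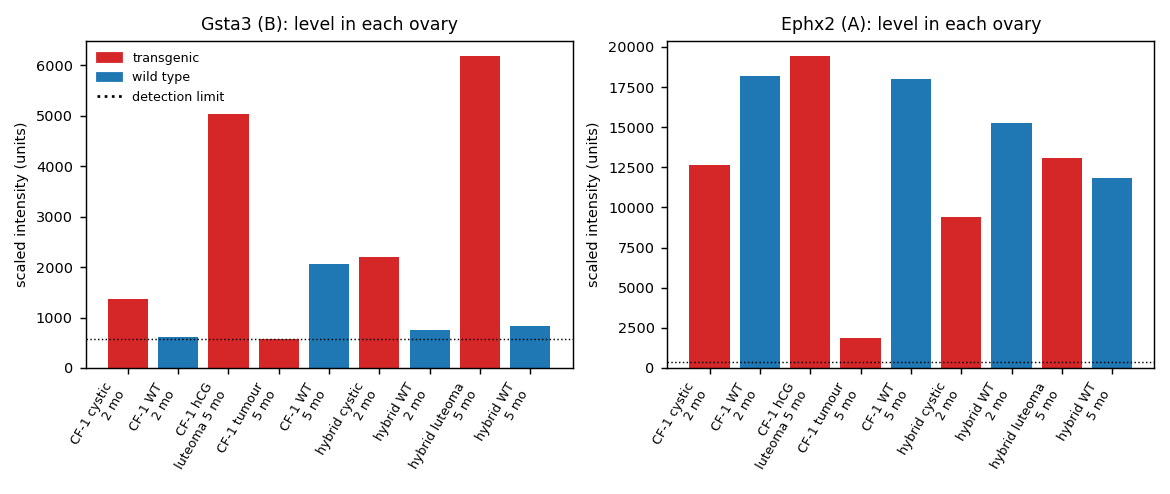
Scaled intensity (units, linear axes from 0) of Gsta3 on chip B and Ephx2 on chip A in each of the 9 ovaries, 1 array per bar, transgenic in red and wild type in blue, with the detection limit dotted. Gsta3 was highest in both luteomas (5043 and 6178 units), and Ephx2 lay at 1849 units in the tumour and at 9395 or more in every other ovary.

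The next comparison asked which members differ between transgenic and wild-type ovaries whatever the strain and age, with limma over the 8 untreated arrays and terms for genotype, strain and age. Values of a genotype are given below for CF-1 at 2 and 5 months and then the hybrid at 2 and 5 months, and an SD is that over these 4 conditions. After adjustment over all probe sets, 0 of the 39 members passed, as did 0 of all 6408 (0%), and the lowest adjusted p of a member was 0.116. At an unadjusted p under 0.05, 5 members (12.8%) were higher and 3 (7.69%) lower in transgenic ovaries, against 300 (4.68%) higher and 342 (5.34%) lower of all. Of the 3 lower members, Cyp2e1 and Cyp2f2 met the detection rule through wild-type ovaries alone. Their calls are therefore tied to that rule and are given as descriptions. The 4 transgenic levels all exceeded the 4 wild-type levels for 4 members (10.3%), against 119 (1.86%) of all, and all lay below them for 1 member (2.56%), against 147 (2.29%) of all. The count of higher members at that p became 1 without the CF-1 cystic ovary and 2 without the hybrid cystic ovary or either wild type of 2 months, and the count of lower ones ran from 3 to 5 when single ovaries were left out. Over all probe sets the count in both directions together was 642 with all 8 arrays. It was 620 without the CF-1 cystic and 383 without the hybrid cystic ovary. Without the CF-1 or the hybrid wild type of 2 months it was 390 or 528. Of the 4 members with separate groups on the high side, 2 are probe sets of the same gene, Aldh2. The median log2 difference was 0.12 over the members and 0.00 over all tested probe sets, with 26 members higher and 13 lower by any amount.

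Cyp1b1 had the lowest p of the members. It is a P450 outside the liver that hydroxylates estradiol, and a target of the aryl hydrocarbon receptor Ahr. It read 10384, 16309, 6815 and 7475 units in transgenic ovaries, against 4000, 5430, 3842 and 4168 in wild-type ones. Every transgenic ovary stood above every wild-type one, and the tumour was highest of all 9. The mean was 10246 ± 4329 units in transgenic and 4360 ± 725.6 in wild-type ovaries (SD, n = 4 each), a log2 difference of 1.16 ± 0.20 (SE) at limma's adjusted p = 0.116. In the hCG-treated ovary Cyp1b1 read 5203 units, close to the 5430 of the CF-1 wild type of the same age. That ovary was outside the model.

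The start region of Cyp1b1, at chr17:79715012-79715311 on the minus strand (RefSeq, GRCm38.p6), is shown because its gene led the genotype comparison and its regulator Ahr is well known.
Cyp1b1: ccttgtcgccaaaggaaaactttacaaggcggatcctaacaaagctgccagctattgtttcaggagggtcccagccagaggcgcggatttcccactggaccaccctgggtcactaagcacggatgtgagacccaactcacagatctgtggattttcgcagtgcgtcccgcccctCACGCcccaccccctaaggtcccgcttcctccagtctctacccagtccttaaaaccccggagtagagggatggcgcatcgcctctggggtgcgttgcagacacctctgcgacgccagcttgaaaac
Capitals mark the core GCGTG of the Ahr response element, which lies on the opposite strand and so reads CACGC, beginning 76 bases before the start. This short core is common, found on either strand in 18 of 53 member genes (34%) and 35.2% of all genes, so its presence does not set Cyp1b1 apart. Searches for 2 further motifs gave low counts. The Nr5a binding site AAGGTCA was in 3 members (5.66%) and 5.38% of genes, and the cAMP response element TGACGTCA in 0 members and 2.03% of genes. TGACNNNGC and TGACGTCA share their first letters, and in Gstm5 a TGACNNNGC match overlaps a CACGC. Ahr itself exceeded the detection limit of 367.6 units in 1 ovary, the CF-1 cystic one, at 413 units, and was not tested.

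Aldh2, the mitochondrial enzyme that oxidises acetaldehyde and aldehydes of lipid peroxidation, gave nearly the same reading on both chip types. On chip A it read 8818, 8548, 10388 and 8908 units in transgenic ovaries, against 5751, 7379, 7082 and 6593 in wild-type ones. On chip B the levels were 8738, 7336, 8732 and 9493 units in transgenic ovaries, against 6420, 6908, 5809 and 6104 in wild-type ones. The groups did not overlap on either chip, though the tumour and its wild type were close. The log2 differences were 0.45 ± 0.16 and 0.44 ± 0.17 (SE), at limma's adjusted p of 0.45 and 0.47.

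Sult1a1, a sulfotransferase of phenols and estrogens, was the other gene whose groups were separate. It read 851, 606, 697 and 1222 units in transgenic ovaries, against 490, 372, 476 and 599 in wild-type ones. The lowest transgenic level, in the tumour, exceeded the highest wild-type level by a small margin. Its log2 difference was 0.77 ± 0.24 (SE) at limma's adjusted p = 0.409, and the hCG-treated ovary read 881 units. Cyp1a2, an estrogen-hydroxylating P450 best known from liver, read 832, 522, 852 and 733 units in transgenic ovaries, against 359, 429, 442 and 733 in wild-type ones. Its groups overlapped at the hybrid pair of 5 months, and a second Cyp1a2 probe set stayed below 0 on all 9 arrays, so the 2 probe sets of this gene disagree.

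Gsta4 was lower in transgenic ovaries in all 4 pairs. It couples glutathione to hydroxynonenal, a toxic product of lipid peroxidation. Levels were 2483, 1594, 2168 and 3048 units in transgenic ovaries, against 4395, 6538, 4597 and 3570 in wild-type ones. The groups did not overlap, the tumour was lowest of all 9, and the hybrid pair of 5 months differed least. The log2 difference was -1.04 ± 0.28 (SE) at limma's adjusted p = 0.31. The hCG-treated ovary read 6238 units, near the 6538 of the CF-1 wild type.

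Epithelial and oviduct genes and smooth muscle genes were lower in the same comparison. At an unadjusted p under 0.05, 6 of 7 tested epithelial and oviduct genes were lower in transgenic ovaries, against 5.34% of all probe sets. Of 4 smooth muscle genes 2 were, Cnn1 and Tagln, while 0 of either list passed adjustment. The epithelial sum was 15650, 1847, 14759 and 10496 units in transgenic ovaries and 23441 in the hCG-treated one, against 29522, 19320, 21809 and 25187 in wild-type ones. The smooth muscle sum was 22286, 16496, 30224 and 19916 units in transgenic ovaries and 15796 in the hCG-treated one, against 34855, 17822, 33228 and 33706 in wild-type ones. Every transgenic sum of epithelial genes thus lay below every wild-type sum, while the smooth muscle sums overlapped. The part of these tissues in the differences of Gsta4 and of Cyp2f2, given below, was not tested.

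Cyp2e1, the P450 that oxidises ethanol and small solvents, was below the floor in each of the 4 transgenic ovaries and in the hCG-treated one. Wild-type ovaries read 54, 832, 489 and 1319 units, and the CF-1 wild type of 2 months was also under the floor. The transgenic ovary was therefore at least 4.53-fold lower in the CF-1 pair of 5 months, at least 2.66-fold in the hybrid pair of 2 months and at least 7.18-fold in the hybrid pair of 5 months. The fitted log2 difference of -1.61 had limma's adjusted p = 0.31 and depends on the floor. Genes of fat cells moved in the same ovaries. At an unadjusted p under 0.05, 4 of 5 tested (Adipoq, Fabp4, Car3 and Retn) were lower, against 5.34% of all probe sets. With adjustment 0 of these fat cell genes passed. Their summed level, Lpl included, was 4768, 4405, 4632 and 5187 units in transgenic ovaries and 5104 in the hCG-treated one, against 5037, 12742, 9377 and 11968 in wild-type ones, so Cyp2e1 was detected in the same 3 ovaries in which this sum was high. The part of fat tissue in the Cyp2e1 difference was not tested. Of 7 liver cell genes with a probe set named here, Alb (albumin, 94 to 453 units), Apoa1, Apoa2 and Hpx did not meet the detection rule, and Hpx was under the floor in all 9 ovaries. The tested ones were Serpina1a, at 384 to 1273 units, Ttr, at 139 to 533, and Ahsg, at 542 or less, which was higher in transgenic ovaries at an unadjusted p under 0.05. The summed level of the 7 was 1993, 1227, 1823 and 1727 units in transgenic ovaries and 2483 in the hCG-treated one, against 1923, 1452, 2517 and 2007 in wild-type ones.

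Cyp2f2, a P450 of airway and liver that activates naphthalene, was the third member lower in transgenic ovaries, and it is dim. It read 36, 77, 256 and 132 units in transgenic ovaries, against 485, 210, 740 and 265 in wild-type ones, with 361 in the hCG-treated ovary. The groups overlapped and 3 of the transgenic levels were under the floor, so the log2 difference of -0.91 ± 0.26 (SE; limma's adjusted p = 0.347) depends on the floor. It was -0.35 with a doubled floor, -1.53 with a halved one and -1.93 with a floor of 20 units.

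**Figure D3:**
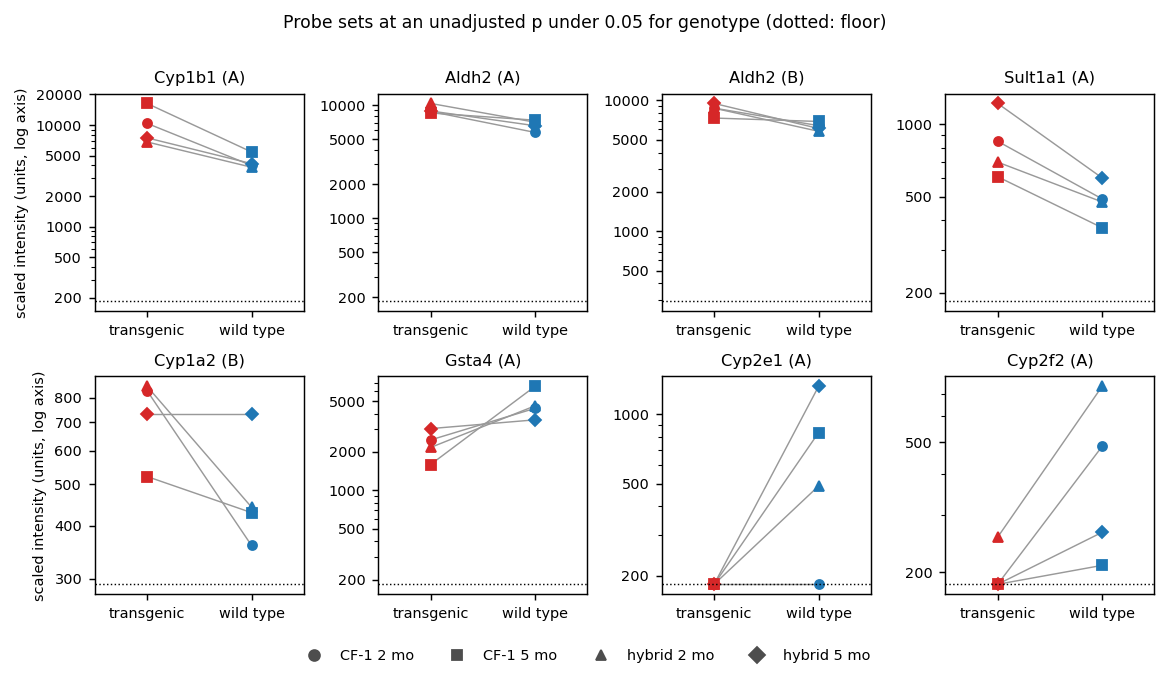
Scaled intensity (units, log axes that differ between panels) of the 8 probe sets at an unadjusted p under 0.05 for genotype, transgenic ovaries in red on the left and wild-type ovaries in blue on the right, with a line joining ovaries of the same strain and age. Values under the floor (dotted) are drawn at it. The groups did not overlap for Cyp1b1, Aldh2 on both chips, Sult1a1 and Gsta4, and all 4 transgenic ovaries were at the floor for Cyp2e1.

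Among the remaining P450 enzymes, the lowest p-values were those for age. Cyp2s1, a P450 of epithelia, read 463 to 1384 units in the ovaries of 5 months (761 tumour, 463 hybrid luteoma, 557 CF-1 wild type, 1384 hybrid wild type). At 2 months it read 3112 and 2650 units in the cystic ovaries and 1886 and 2144 in the wild types. No ovary of 5 months reached the lowest of 2 months, the log2 difference of 5 minus 2 months was -1.74 ± 0.37 (SE), and limma's adjusted p was 0.133, the lowest of the members for age. The hCG-treated ovary, also of 5 months, read 831 units. In the hybrid luteoma Cyp2s1 was 2.99-fold lower than in its wild type, just short of 3-fold.

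Cyp4b1 and Cyp2a12 ran the other way with age, near the detection limit. Cyp4b1, a P450 that acts on fatty acids and aromatic amines, read 543, 641, 491 and 582 units at 5 months in the tumour, CF-1 wild type, hybrid luteoma and hybrid wild type, against 349, 350, 402 and 224 at 2 months in the cystic and wild-type ovaries of CF-1 and then of the hybrid. Its log2 difference was 0.79 ± 0.22 (SE), with limma's adjusted p = 0.159. Cyp2a12, a steroid-hydroxylating P450 of liver, read 740, 515, 644 and 556 units at 5 months, against 499, 507, 227 and 185 at 2 months in the same order, and was low in both hybrid ovaries of 2 months. The hCG-treated ovary, also of 5 months and outside the model, read 389 units for Cyp4b1 and 351 for Cyp2a12. Both values lay within the range of the ovaries of 2 months. At an unadjusted p under 0.05 for age, 7 members (17.9%) were called, against 1252 (19.5%) of all probe sets, and with adjustment 0 members, against 1 (0.0156%) of all. The other 4 of the 7 were Cyp2d26, Cyp2f2, Gsto1 and Gpx3 on chip B, each lower at 5 months.

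For strain 3 members (7.69%) were called at an unadjusted p under 0.05, against 505 (7.88%) of all, and 0 with adjustment, against 2 (0.0312%) of all. They were Cyp2a12 (log2 difference of hybrid minus CF-1 -0.67), Cyp1b1 (-0.54) and Gsto1 (0.62), at limma's adjusted p of 0.625, 0.624 and 0.627. The shares for age and strain were thus near those of all probe sets. In limma's interaction fits, which ask whether the genotype difference itself changed with age or with strain, 0 members passed adjustment, and 0% of all probe sets did in either fit. At an unadjusted p under 0.05, 4 members (10.3%) were called for age, against 177 (2.76%) of all, and 7 (17.9%) for strain, against 348 (5.43%) of all, so the members' shares were above those of all probe sets. The 4 for age were Cyp2e1, Cyp2f2, Gpx3 on chip B and Cyp1a2. The 7 for strain were Akr1a1, the brighter Gstm5 probe set, Aldh3a1, Aldh3a2, Gpx3, Gstt2 (each on chip A) and Gsta3. The dimmer tested Gstm5 probe set, also on chip A, was not called. Gpx3 was called for age on chip B alone and for strain on chip A alone, so its 2 probe sets disagree in both fits. Of the called members, Cyp2e1, Cyp2f2, Aldh3a1 and Gstt2 were under the floor in part of the ovaries. Cyp2e1 and Cyp2f2 met the detection rule through wild-type ovaries alone, and Gsta3 had been singled out in these data. The members' shares are therefore a description only.

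Other P450 genes were dim apart from Cyp2d10 on chip B, and none had an unadjusted p under 0.05 for genotype. Cyp2d10, of a family that acts on many drugs, was the brightest of them at 1048 to 2171 units over the 9 ovaries on chip B, while its chip A probe set was not detected. Cyp2j6, of the Cyp2j subfamily, read 877 units in the hCG-treated ovary, against 221 in the matching wild type, with 322 to 683 in the other 7. Cyp4v3, of a fatty acid hydroxylase family, lay between 239 and 632 units. Cyp2d26 was lower in the transgenic ovary of all 4 pairs, at 393, 201, 294 and 189 units against 429, 258, 369 and 362 in wild types, with a log2 difference of -0.44 ± 0.20 (SE) and limma's adjusted p = 0.549. It was under the detection limit in most ovaries.

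Of the 8 tested aldehyde dehydrogenase probe sets, 6 were higher and 2 lower in transgenic ovaries by any amount, with a median log2 difference of 0.34. Apart from the 2 of Aldh2, none had an unadjusted p under 0.05. Aldh4a1, of proline breakdown, read 2499, 1954, 2293 and 2226 units in transgenic ovaries, against 1897, 1695, 1966 and 1665 in wild-type ones. It was higher in 4 of 4 pairs, but the tumour lay within the wild-type range, and the log2 difference of 0.31 ± 0.14 (SE) had limma's adjusted p = 0.553. Aldh18a1, of proline synthesis, was highest in the tumour at 2571 units, against 1470 in its wild type and at most 1739 elsewhere. Aldh7a1, of lysine breakdown, was lower in 3 of 4 pairs, with a log2 difference of -0.35 (limma's adjusted p = 0.594). Aldh3a2, which oxidises fatty aldehydes, stayed between 205 and 474 units, at the edge of detection.

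Aldh1a1, which makes retinoic acid from retinal and was the brightest of the family, read 14475, 14852, 19527 and 13827 units in transgenic ovaries, against 14362, 16782, 14100 and 12227 in wild-type ones. These overlapped almost fully, with a log2 difference of 0.12 ± 0.19 (SE; limma's adjusted p = 0.881), and the hCG-treated ovary was highest at 28349 units. Of 13 further genes of the retinoic acid pathway 5 have a probe set named here, 4 were tested and 0 were called at an unadjusted p under 0.05. Crabp2, which carries retinoic acid, read 3221 units in the tumour, against 1214 in its wild type and at most 1506 elsewhere.

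The aldo-keto reductases and the glutathione peroxidases were mostly bright, and 0 of their 6 tested probe sets had an unadjusted p under 0.05 for genotype. Akr1a1, an aldehyde reductase that also serves vitamin C synthesis in mice, read 14620 to 33193 units over the 9 ovaries, and Akr1b8, an aldose reductase relative, 2923 in the tumour and 3760 to 7812 elsewhere. Gpx3, the secreted peroxidase of plasma, read 18097, 11796, 28887 and 19327 units on chip A in transgenic ovaries, against 17155, 24028, 16103 and 13109 in wild-type ones. On chip B it read 25482, 9563, 38771 and 15358 units in transgenic ovaries, against 21206, 18386, 18278 and 18770 in wild-type ones. On both chips the tumour was lowest of the 9 ovaries, 1.11-fold and 1.61-fold below the next. Gpx4, which repairs peroxidised membrane lipids, stayed between 11495 and 21308 units. Gpx1, the cytosolic peroxidase, was detected in 3 ovaries, at 995 units in the CF-1 cystic one, 696 in the tumour and 655 in the hybrid wild type of 5 months.

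Glutathione transferases outside the alpha class differed in how far they varied. Gstz1, of tyrosine breakdown, varied 1.46-fold over the 9 ovaries, at 1453 to 2122 units, and Gstp1, the pi class enzyme, 2-fold, at 5964 to 11925 units. Gsto1, of the omega class, varied 5.47-fold and read 811 units in the tumour and 1849 to 4434 elsewhere, so the tumour was 2.28-fold below the next ovary. It was lower in transgenic ovaries in 4 of 4 pairs, with a log2 difference of -0.59 ± 0.26 (SE) and limma's adjusted p = 0.515. Both tested probe sets of Gstm5, a mu class gene, were highest in the tumour, at 4770 units against 2032 to 3931 elsewhere and at 1615 against 605 to 1276. Those margins of 1.21-fold and 1.27-fold are small, and no second tumour array exists to set an error on them.

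Gstm1 and Gstm2, also of the mu class, sat near the top of the scale, where array differences matter. Gstm1 read 21970, 24145, 31680 and 24312 units in transgenic ovaries, against 17979, 29863, 17296 and 16147 in wild-type ones. Its log2 difference was 0.36 ± 0.25 (SE; limma's adjusted p = 0.693), and Gstm2 had 0.27 ± 0.24 (adjusted p = 0.783). The 99th percentile of the arrays on chip A moved alike, at 16422, 18090, 23318 and 16933 units on the transgenic arrays and 23629 on the hCG-treated one, against 17641, 21189, 15824 and 13303 on the wild-type arrays. After quantile normalization Gstm1 ran from 18060 to 26508 units and was highest in the hybrid luteoma in place of the hCG-treated ovary, and so was Akr1a1 at 27944. Aldh1a1, Gpx3 on chip A and Gstm2 were still highest in the hCG-treated ovary, at 20764, 23590 and 18140 units.

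**Figure D4:**
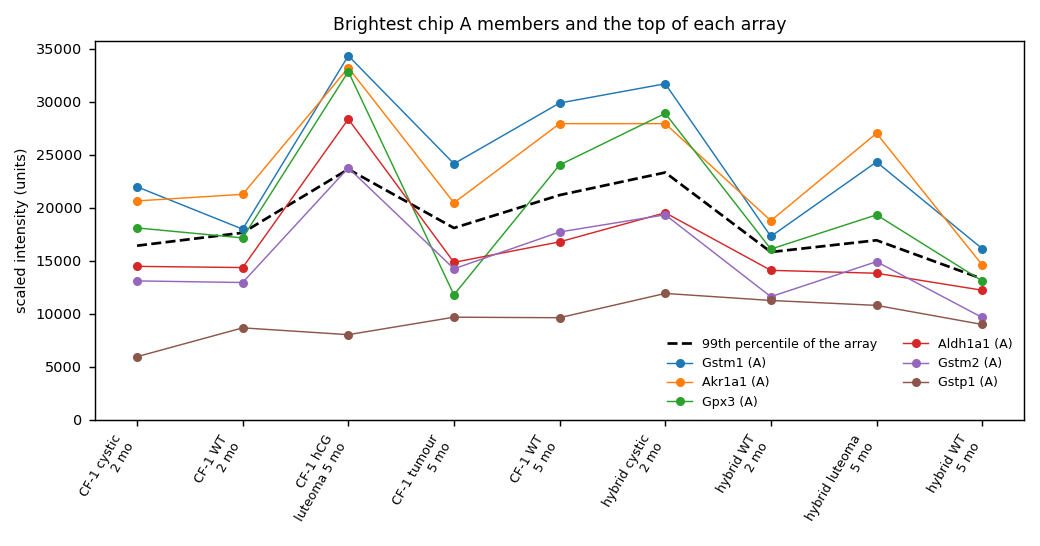
Scaled intensity (units, linear axis from 0) of 6 bright chip A members across the 9 ovaries, 1 array each, beside the 99th percentile of each array (dashed); lines join the points of a probe set and imply no order. Gstm1, Gstm2, Akr1a1, Gpx3 and Aldh1a1 had their highest point in the hCG-treated ovary, where the percentile was also highest, at 23629 units.

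Each transgenic ovary was then set against the wild type of its strain and age, 1 array against 1, by a rule of at least 3-fold with the brighter side detected and with no test. Both CF-1 comparisons at 5 months use the same wild-type array. The tumour had 4 members lower (10.3%), Gsta4, Ephx2, Cyp2e1 and Gsta3, against 189 (2.95%) of all probe sets, and 1 higher (2.56%), Cyp1b1, right at the 3-fold limit, against 94 (1.47%) of all. Its median log2 difference was 0.06 over the members and 0.01 over all.

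In the hCG-treated luteoma 3 members were higher (7.69%), against 121 (1.89%) of all, and 1 was lower (2.56%), Cyp2e1, against 112 (1.75%) of all. The higher ones were Sult2b1, Aldh3a1 and Cyp2j6. Sult2b1, which sulfates cholesterol and other sterols, read 1014 units there, against 11 in the CF-1 wild type, at least 5.52-fold. Elsewhere it read at most 650 units, in the hybrid cystic ovary, and a second probe set stayed below 0 on all arrays. Aldh3a1, an aldehyde dehydrogenase abundant in cornea, read 786 units, against 32 in the wild type, at least 4.28-fold. Cyp2j6 was 3.97-fold higher. All 3 were dim. The median log2 difference was 0.25 over the 39 members and 0.00 over all probe sets.

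The hybrid luteoma had Gsta3 as its 1 member higher (2.56%), against 137 (2.14%) of all, and Cyp2e1 as its 1 member lower (2.56%), against 109 (1.7%) of all. Its median was 0.12 over the members and -0.07 over all. Gsta3 had been singled out in these data, so its count here is a description only. At 2 months the CF-1 cystic ovary had 1 member higher (2.56%), Aldh3a1 at 716 units against 185 in its wild type, against 45 (0.702%) of all, and 0 lower, against 34 (0.531%) of all. That wild-type level lay just above the floor and under the detection limit, so the fold is imprecise. In the hybrid at 2 months Aldh3a1 ran the other way, at 391 units in the cystic ovary against 666 in its wild type. The hybrid cystic ovary had 0 members higher, against 72 (1.12%) of all, and 1 lower (2.56%), against 71 (1.11%) of all. This was Gstt2, a theta class transferase, under the floor at 169 units against 594 in the wild type, at least 3.23-fold. The members' medians were 0.16 in the CF-1 and 0.31 in the hybrid pair of 2 months, against 0.01 over all probe sets in both.

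**Figure D5:**
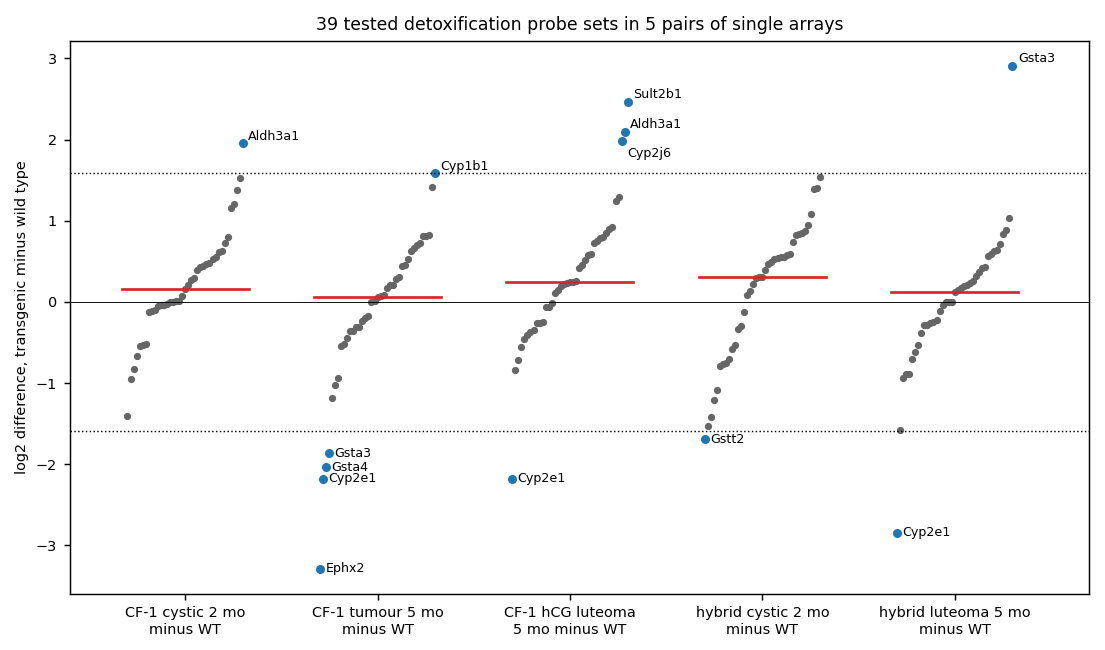
Log2 difference of the 39 tested probe sets in 5 pairs of single arrays, transgenic minus wild type, each sorted from low to high; red lines are medians and dotted lines mark 3-fold. Named points passed 3-fold with the brighter side detected, from Ephx2 at -3.28 in the tumour to Gsta3 at 2.91 in the hybrid luteoma, while the medians lay between 0.06 and 0.31.

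The third sulfotransferase tested, Sult5a1, was the most even of its family. It read 1055, 1139, 659 and 1111 units in transgenic ovaries, against 733, 840, 716 and 946 in wild-type ones, and 612 in the hCG-treated ovary. It was higher in 3 of 4 pairs, with a log2 difference of 0.27 ± 0.18 (SE; limma's adjusted p = 0.693). A second probe set of the gene was not detected.

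Genes that work beside these families were read from a list of 55, of which 34 have a probe set named here and 24 were tested. At an unadjusted p under 0.05, 4 were higher in transgenic ovaries and 0 were lower, against 4.68% higher and 5.34% lower of all probe sets. With adjustment 0 passed, and the median log2 difference was -0.01. The 4 were Sod3, Hmox1, Nfe2l2 and Txnrd1. Sod3, the superoxide dismutase secreted into the matrix, read 2365, 2545, 3852 and 3775 units in transgenic ovaries, against 777, 1884, 1480 and 1183 in wild-type ones. The groups did not overlap, and the log2 difference was 1.27 ± 0.28 (SE; limma's adjusted p = 0.23). Nfe2l2, the factor that binds the antioxidant response element, read 2269, 2765, 2992 and 3329 units in transgenic ovaries, against 1749, 2145, 1948 and 1743 in wild-type ones. It was highest in the hCG-treated ovary at 4334 units, with a log2 difference of 0.57 ± 0.17 (SE; limma's adjusted p = 0.374). Hmox1, heme oxygenase, and Txnrd1, thioredoxin reductase, had log2 differences of 0.61 and 0.41 (limma's adjusted p = 0.406 and 0.489). Enzymes such as the superoxide dismutase Sod1, catalase (Cat) and the glutathione synthesis gene Gclc were not called, with log2 differences of 0.15, 0.07 and 0.11.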

How the data were processed

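RNA of 9 ovary conditions had been hybridised to 2 chip types, 1 array each, 18 arrays. The authors deposited 1 linear intensity per probe set, with 13.6% to 30.1% of an array's values below 0. Their software and background handling are not given in the sources at hand. Groups follow the labels' titles and sources; on chip B, the tumour's description states 2 months, its title and source 5.

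Arrays of a chip type were brought to the same trimmed mean (2nd to 98th percentile). Values were raised to a floor, taken per array as the higher of the 25th percentile and the 5th without its sign, with the median over arrays used, before log2. The brightest probe set of each array was deposited at 24574 to 41833 units. On each chip 76 control or shared probe sets were left out, as were probe sets with any of the 3 missing values, and 5 probe sets with several symbols, 1 of them matching, are no members. Symbols come from the platform annotation supplied. Tests used limma 3.58.1 (lmFit, eBayes) in R 4.3.3 on 8 untreated arrays per chip type, 4 residual degrees of freedom, with Benjamini-Hochberg adjustment over both chip types; the script was tested on simulated data. The spread is that between conditions, not between animals of a condition. Single-array comparisons used rules of size. Alternatives were the floor, the filter, the scaling, the variance model, a term for 3 arrays that share a profile on control probe sets, and leaving out each array; a block for each pair of strain and age was added after seeing the data.

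The members and lists were chosen with earlier results of these data known. Values are named for Gsta3 and Ephx2, members of known ovarian role, the brightest of each family, the lowest p for each term, and the largest differences of each pair; other members are given by range.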

Additional observations from a re-analysis of the deposited data

Results flagged for a closer look

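Among 54 checks of 4 arrays of a genotype, made on 27 named genes, 5 had 1 array far from the other 3 (by Dixon's criterion on the gap over the range), where chance gives about 1 in 20. That figure says little here. Ephx2 had been singled out for this value, so its entry is a description, and for Cyp2f2 and Sult2b1 the other 3 levels all lie at the floor, so that any level above it meets the criterion. Ephx2 in the tumour, at 1849 units, lay below the other transgenic ovaries (9395 to 13090 units). Sult5a1 in the hybrid cystic ovary, at 659 units, lay below the other 3 transgenic ovaries (1055 to 1139 units). Cyp2a12 in the hybrid wild type of 2 months, at 185 units, lay below the other wild types (507 to 556 units). Cyp2f2 at 256 units and Sult2b1 at 650 units, both in the hybrid cystic ovary, lay above 3 transgenic ovaries that were all under the floor, and Cyp2f2 was itself under the detection limit.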

How the results depend on the processing

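With limma, 0 members passed the adjusted threshold under any alternative run, while over all probe sets 8 passed with trend and robust variances, 7 without the tumour, and 2 and 1 when the CF-1 wild type of 2 or 5 months was left out. The 8 members at an unadjusted p under 0.05 became 5 without the hybrid cystic ovary and 5 without the hybrid wild type of 2 months, and leaving out 1 array gave 5 to 11. Over all probe sets the corresponding count of 642 was 383 without the hybrid cystic ovary and 390 with the younger CF-1 wild type omitted. Cyp1b1 kept its direction throughout, with log2 differences of 0.998 to 1.29 and adjusted p of 0.075 to 0.464. Cyp2e1 depends on the floor, at -4.36 with a floor of 20 units and -0.86 with a doubled one.

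Ephx2 and Gsta3, chosen for these values, met their rules under each floor, filter and scaling run, with gaps of 5.01 to 5.25-fold and 2.29 to 2.47-fold over the scalings. The 13 differences of at least 3-fold over the 5 pairs became 6 with a doubled floor. That floor left 0 in the hCG pair and 0 in both cystic pairs. A halved floor and a floor of 20 units each gave 2 members in the CF-1 cystic pair and 2 in the hybrid cystic pair, in place of 1 each. A block for each pair of strain and age, chosen after seeing the data, leaves the genotype estimates as they are and gave 10 members at an unadjusted p under 0.05, 0 members with adjustment, and 623 and 0 of all probe sets. For the genotype difference, the term for 3 arrays that share a control profile equals a fit without the 5-month hybrid wild type. With 1 array per condition no error of a single ovary can be given.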
